A study of Mus musculus with 6 samples.

Results

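The 10 genes described here mark tissue macrophages or serve the uptake of dying cells, and they were chosen by name: *Adgre1*, *Cd68*, *Mrc1*, *Cd163* and *Marco* as macrophage markers, *C1qa*, *C1qb* and *C1qc* as the chains of complement C1q, and *Mertk* and *Axl* as efferocytosis receptors. All 10 were found among the 54532 genes of the table. They were measured by RNA-sequencing in GFP+ leukemia cells sorted from bone marrow of mice with AML driven by RUNX1-ETO9a (RE9a), a truncated form of the t(8;21) fusion protein delivered with GFP by a retrovirus. The 3 *WT Phf6,RE9a* libraries (WT replicates 1, 2 and 3) come from cells of the genotype *Phf6* fl/y, with a floxed allele and no Cre, and the 3 *VC Phf6,RE9a* libraries (KO replicates 11, 12 and 13) from *Vav1-Cre;Phf6* fl/y cells, in which Vav1-Cre, active in blood cells, deletes that allele. Both groups carry the floxed allele and RE9a, and the model was made from lineage-negative fetal liver cells that were passed serially through male recipients. GFP marks the transduced cells and their progeny, whatever cell type these become. Whether libraries of the same genotype stem from different mice or leukemias is not in the labels, and the p-values measure only the spread between these libraries. Total counts ran from 15675358 to 16817994. *Phf6* had 1044, 827 and 1142 counts in WT and 388, 314 and 331 in KO, and it fell from 64.3 ± 7.15 to 20.3 ± 2.37 CPM (counts scaled to library size, ± SD, n = 3) with no overlap between the groups (log2 fold change -1.66, adjusted p = 9.32e-05 from edgeR).

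Macrophages reside in the marrow, where they engulf the nuclei that red cell precursors expel, senescent cells and cells that die by apoptosis. C1q is assembled from the products of *C1qa*, *C1qb* and *C1qc*, which macrophages and dendritic cells make. It starts the classical complement pathway by activating the proteases C1r and C1s, of which C1s then cleaves C4 and C2. C1q also binds dying cells directly. MERTK and AXL are receptor tyrosine kinases that recognise phosphatidylserine on dying cells through bridging proteins, GAS6 for both and protein S for MERTK. F4/80 (*Adgre1*) and the lysosomal protein CD68 are widely used macrophage markers, although F4/80 is also found on eosinophils and CD68 in other myeloid cells. CD163 takes up haptoglobin-bound hemoglobin, the mannose receptor (*Mrc1*) binds glycans, and MARCO is a scavenger receptor for bacteria and particles. Because the RNA came from sorted cells in bulk, fewer cells of a type and less RNA per cell cannot be told apart.

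The C1q genes lie side by side on the minus strand of chromosome 4 (GRCm38), *C1qb* (ENSMUSG00000036905) from 136880129 to 136886187, *C1qc* (ENSMUSG00000036896) from 136889804 to 136893065 and *C1qa* (ENSMUSG00000036887) from 136895917 to 136898803, within 18.7 kb that holds no other gene of the table. The promoters of *C1qb* and *C1qc*, neighbours in this cluster, and of the related receptors *Axl* and *Mertk* are shown from 250 bases before to 50 bases after the RefSeq start site (GRCm38.p6), 5′ to 3′ along each gene. Capitals mark GAGGAA, the core to which the myeloid factor PU.1 binds, and TGCTGA, a core of the site of MAF proteins, on either strand (TTCCTC is GAGGAA on the other strand).
*C1qb* (chr4:136886151-136886450, minus strand): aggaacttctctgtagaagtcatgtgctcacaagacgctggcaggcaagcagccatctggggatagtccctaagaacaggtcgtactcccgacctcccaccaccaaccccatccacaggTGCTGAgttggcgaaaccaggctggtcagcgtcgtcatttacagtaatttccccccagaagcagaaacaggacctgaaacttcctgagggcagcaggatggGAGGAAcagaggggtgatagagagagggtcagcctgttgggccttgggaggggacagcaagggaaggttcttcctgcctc
*C1qc* (chr4:136892865-136893164, minus strand): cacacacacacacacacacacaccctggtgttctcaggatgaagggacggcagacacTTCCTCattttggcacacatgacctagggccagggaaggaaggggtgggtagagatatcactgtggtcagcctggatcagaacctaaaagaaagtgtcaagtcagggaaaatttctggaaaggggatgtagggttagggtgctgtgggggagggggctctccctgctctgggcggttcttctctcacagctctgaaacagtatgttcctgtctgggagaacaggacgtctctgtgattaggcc
*Axl* (chr7:25788684-25788983, minus strand): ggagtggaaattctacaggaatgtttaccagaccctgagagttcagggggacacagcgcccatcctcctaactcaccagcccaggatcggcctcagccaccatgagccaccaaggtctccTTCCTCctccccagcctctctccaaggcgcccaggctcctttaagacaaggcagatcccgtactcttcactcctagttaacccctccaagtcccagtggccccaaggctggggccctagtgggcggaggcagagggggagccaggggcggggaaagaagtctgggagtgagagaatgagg
*Mertk* (chr2:128698665-128698964, plus strand): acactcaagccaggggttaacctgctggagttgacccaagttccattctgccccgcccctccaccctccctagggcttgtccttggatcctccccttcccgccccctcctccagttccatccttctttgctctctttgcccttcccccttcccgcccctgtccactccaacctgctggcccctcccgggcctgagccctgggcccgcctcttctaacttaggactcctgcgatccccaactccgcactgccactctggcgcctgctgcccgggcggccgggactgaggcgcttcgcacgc
GAGGAA occurred once in each of the *C1qb*, *C1qc* and *Axl* windows and not in that of *Mertk*, and TGCTGA occurred in that of *C1qb* only among the 8 members with an entry (not entered were *C1qa* and *Adgre1*). Of the other entries, *Mrc1* held 3 matches of GAGGAA, *Cd68* 2, *Marco* 1 and *Cd163* 0. Among all 32851 promoters of this length, 28.3% held GAGGAA and 19.5% TGCTGA, so that such matches are common. They describe letters and not binding.

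All 10 genes were lowly to moderately expressed in the sorted cells. FPKM, the authors' value scaled by gene length and library size, allows levels of different genes to be compared. Per length, *Cd68* was the highest in both groups, with 9.86 ± 2.15 FPKM in WT and 14.7 ± 2.17 FPKM in KO (SD, n = 3), and in each group its libraries lay above those of all other members. *C1qa* followed at 2.69 ± 1.18 and 4.08 ± 0.519 FPKM and *C1qb* at 2.19 ± 1.14 and 3.67 ± 0.636 FPKM, and these neighbours in the order overlapped in both groups. *C1qc* came next at 1.08 ± 0.382 and 1.85 ± 0.329 FPKM, below *C1qb* without overlap only in KO. In CPM the 2 genes were closer, with means of 2.10 (*C1qc*) and 2.40 (*C1qb*) in WT and 3.62 and 4.05 in KO. Their gap in FPKM thus rests largely on the annotated lengths of 1931 and 1088 bases. In WT every neighbouring pair below *Cd68* overlapped, down through *Adgre1* (0.772 FPKM), *Axl* (0.735), *Mrc1* (0.477), *Cd163* (0.312) and *Marco* (0.113) to *Mertk* (0.0940). In KO *Axl* (1.35 FPKM) stood above *Adgre1* (1.05), *Mrc1* (0.645), *Mertk* (0.210), *Cd163* (0.177) and *Marco*, which was listed at 0. There *Axl*, *Adgre1* and *Mrc1* were each separate from the next lower gene, whereas *C1qc* overlapped *Axl* and *Mertk* overlapped *Cd163*. By mean CPM, *Cd68* reached the 42.4th percentile of the 14169 genes tested and *Axl* the 28.9th. *Mrc1*, *C1qa*, *C1qb*, *Adgre1* and *C1qc* lay between the 21.8th and 24.4th, and *Cd163* (12.2) and *Mertk* (2.48) lay lower. Gene models overlapping *Mertk* (*Gm14011*, antisense, and *Gm23172*) and *Mrc1* (*Mir511*) had 0 counts in every library.

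**Figure D1:**
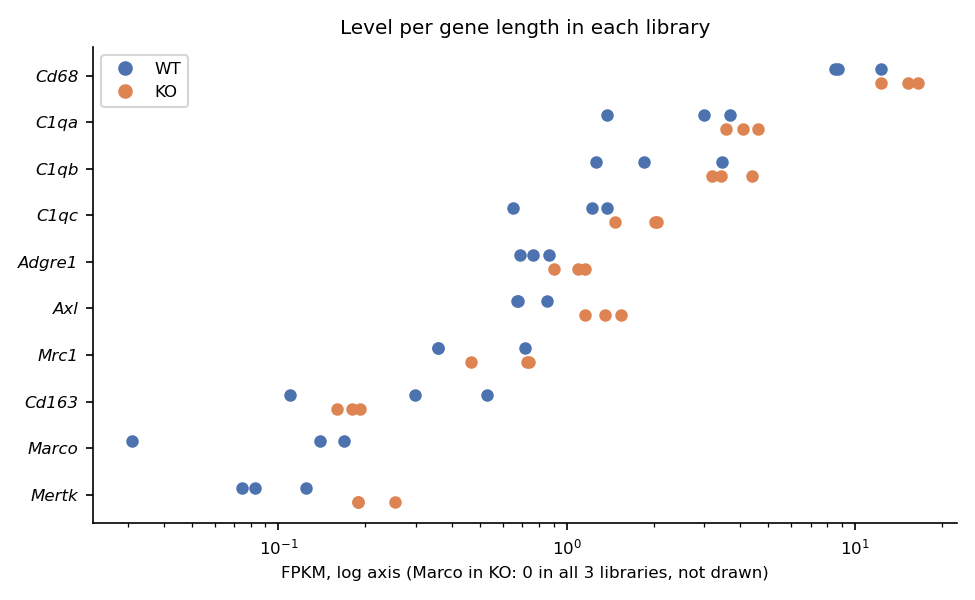
FPKM (log axis) of each gene in the 3 WT (blue) and 3 KO (orange) libraries, 1 point per library. *Cd68* lies above all other genes in both groups, and *Marco* has no orange points because it was listed at 0 in all 3 KO libraries.

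Of the 10 genes, 9 had enough counts for edgeR's quasi-likelihood test, and *Axl*, *Cd68* and *Mertk* were higher in KO at an adjusted p under 0.05, whereas 0 were lower. These 3 of 9 (33.3%) stand beside 44.2% of all 14169 genes called in either direction and 21.5% called higher. In CPM the libraries of the groups did not overlap for 5 of the 9 (55.6%). This stands beside 57.3% of all genes (28.9% with KO above WT and 28.4% below), so neither share set these genes apart. Among the 5656 genes within the tested members' range of mean CPM, 38.7% were called and 20.1% were higher. The median log2 fold change of the 9 was 0.617, against 0.0127 over all genes tested. *Mertk* and *Cd163* passed the count filter only through their KO libraries, so the counts and the median over the 9 are no evidence of direction.

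**Figure D2:**
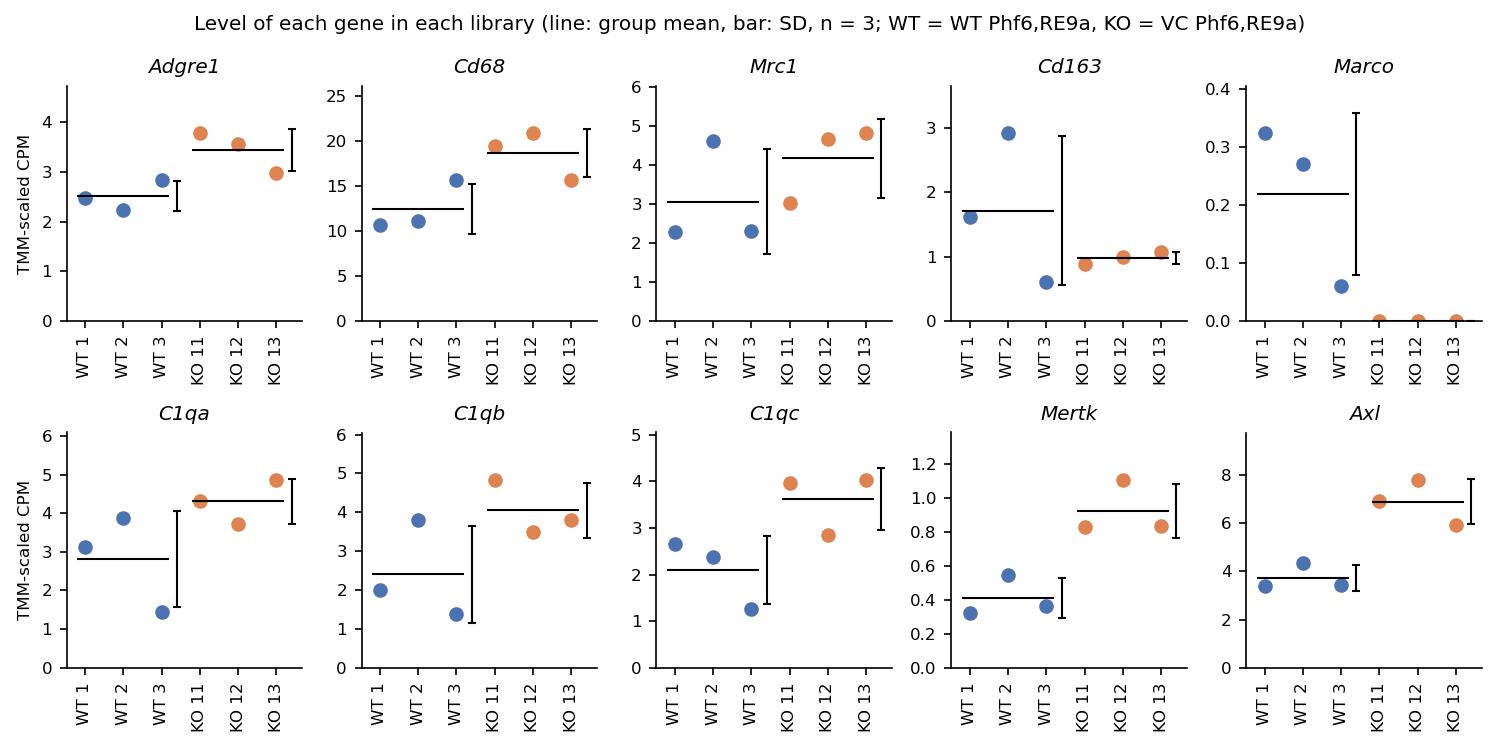
TMM-scaled CPM of each gene (vertical axes from 0, 1 panel per gene) in the WT (blue) and KO (orange) libraries, with the group mean as a line and the SD as a bar (n = 3). *Axl* and *Mertk* show separate groups, the C1q chains are lowest in WT replicate 3, and *Marco* is at 0 in all KO libraries.

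*Axl* (ENSMUSG00000002602, chromosome 7, 25757273 to 25788705) showed the smallest p of the members. It had 52, 64 and 57 counts in WT and 117, 134 and 100 in KO, or 3.38, 4.34 and 3.45 CPM against 6.91, 7.81 and 5.94 CPM. Every KO library thus lay above every WT library. The fitted change was 1.85-fold (95% interval 1.28 to 2.68; log2 fold change 0.89 with a standard error, SE, of 0.23, adjusted p = 0.0163 from edgeR). The call held under all 6 other tools, filters and scalings, and was lost without KO replicate 11 (adjusted p = 0.0506) and without replicate 12 (0.0648).

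*Mertk* (ENSMUSG00000014361, chromosome 2, 128698956 to 128802894) was rarely read, with 5, 8 and 6 counts in WT and 14, 19 and 14 in KO. These correspond to 0.325, 0.543 and 0.363 CPM against 0.827, 1.11 and 0.832 CPM, again without overlap. The fitted change was 2.24-fold (95% interval 1.21 to 4.14; log2 fold change 1.16, SE 0.38, adjusted p = 0.0409 from edgeR). The call rests on few reads: it was kept in only 1 of 6 fits with a library omitted (without WT replicate 2), where the adjusted p ran from 0.0494 to 0.145, and it was lost with DESeq2 (adjusted p = 0.190), without the count filter (0.119) and with limma on FPKM (0.114 with a pseudocount of 1 and 0.0531 with 0.1). Within a library, the log2 ratio of *Mertk* to *Axl* (FPKM + 0.1) was -2.11 ± 0.0285 in WT and -2.23 ± 0.105 in KO (SD, n = 3), a difference of -0.118 (exact 2-sided permutation p = 0.2, smallest possible 0.1). The sign of this difference turned without the pseudocount (0.303), so the data give no direction for it.

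Of the macrophage markers, *Cd68* (ENSMUSG00000018774, chromosome 11, 69664213 to 69666153) had 165, 163 and 259 counts in WT and 329, 358 and 264 in KO. On the CPM scale these were 10.7, 11.1 and 15.7 against 19.4, 20.9 and 15.7, so that WT replicate 3 (15.675) and KO replicate 13 (15.685) were nearly equal. In FPKM their order was reversed (12.336 and 12.249), so whether the groups overlap depends on the scaling. The fitted change was 1.49-fold (95% interval 1.08 to 2.06; log2 fold change 0.58, SE 0.20, adjusted p = 0.0472 from edgeR). It passed the threshold under 5 of 6 other tools, filters and scalings (adjusted p = 0.0527 without the count filter) but in only 2 of the 6 fits with a library left out. The adjusted p was 0.130 without WT replicate 1, 0.111 without replicate 2, 0.125 without KO replicate 11 and 0.150 without replicate 12.

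*Adgre1* (ENSMUSG00000004730, chromosome 17, 57358691 to 57483527), which encodes F4/80, had 38, 33 and 47 counts in WT and 64, 61 and 50 in KO. Its levels of 2.47, 2.24 and 2.84 CPM and of 3.78, 3.55 and 2.97 CPM did not overlap. The log2 fold change of 0.45 did not pass the threshold (95% interval -0.14 to 1.03, adjusted p = 0.188 from edgeR), an interval that runs from 0.910-fold to 2.04-fold. *Adgre1* and *Cd68* shared the library order within each group at its ends: replicate 3 was the highest WT library and replicate 13 the lowest KO library for both.

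*Mrc1* (ENSMUSG00000026712, chromosome 2, 14229392 to 14332057), the mannose receptor, had 35, 68 and 38 counts in WT and 51, 80 and 81 in KO. Its 2.27, 4.61 and 2.30 CPM and its 3.01, 4.66 and 4.81 CPM overlapped, since WT replicate 2 lay above KO replicate 11. The log2 fold change was 0.45 (95% interval -0.40 to 1.29, adjusted p = 0.355 from edgeR). *Cd163* (ENSMUSG00000008845, chromosome 6, 124304656 to 124330527) was the member whose estimate pointed down. It had 25, 43 and 10 counts in WT and 15, 17 and 18 in KO, or 1.62, 2.92 and 0.605 CPM against 0.886, 0.990 and 1.07 CPM. The KO libraries lay close together and inside the wide range of the WT libraries. The log2 fold change was -0.79 (95% interval -2.03 to 0.45, adjusted p = 0.266 from edgeR), and it came to -1.21 with an adjusted p of 0.0438 without WT replicate 3 and to -0.18 (0.797) without replicate 2.

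*Marco* (ENSMUSG00000026390, chromosome 1, 120474538 to 120505024) had 5, 4 and 1 counts in WT and 0 in each KO library, and was below the count filter. Without that filter edgeR gave an adjusted p of 0.0531, and DESeq2 gave an unadjusted p of 0.0426 and no adjusted p. In a single library a count of 0 allows up to 3 counts, or 0.175 to 0.178 CPM in the KO libraries. This lies within the 0.0605 to 0.325 CPM of the WT libraries. It is a limit for 1 library at a time and not for the 3 KO libraries together, and no difference was called. Such limits, and the intervals on counts given for C1q, reflect counting error alone and treat each read as independent. Because PCR copies were not told apart, these limits and intervals may be too narrow.

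The C1q chains were estimated higher in KO, but none of them passed the threshold. *C1qa*, the A chain, had 48, 57 and 24 counts in WT and 73, 64 and 82 in KO, or 3.12, 3.87 and 1.45 CPM against 4.31, 3.73 and 4.87 CPM. *C1qb*, the B chain, had 31, 56 and 23 counts against 82, 60 and 64, or 2.01, 3.80 and 1.39 CPM against 4.84, 3.50 and 3.80 CPM. For these chains WT replicate 2 lay above KO replicate 12. *C1qc*, the C chain, had 41, 35 and 21 counts against 67, 49 and 68, or 2.66, 2.37 and 1.27 CPM against 3.96, 2.85 and 4.04 CPM, and its groups did not overlap.
The log2 fold changes were 0.62 for *C1qa* (95% interval -0.24 to 1.47, adjusted p = 0.212 from edgeR), 0.76 for *C1qb* (-0.15 to 1.66, adjusted p = 0.154) and 0.78 for *C1qc* (-0.01 to 1.58, adjusted p = 0.0995). The intervals reach from a small decrease to 2.77-fold, 3.16-fold and 2.99-fold higher, so they leave room for a change as large as those of *Axl* and *Mertk* as well as for none. *C1qb* passed the threshold in 1 of all 12 alternative fits, without WT replicate 2 (log2 fold change 1.24, adjusted p = 0.0217), and *C1qa* and *C1qc* in 0.

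**Figure D3:**
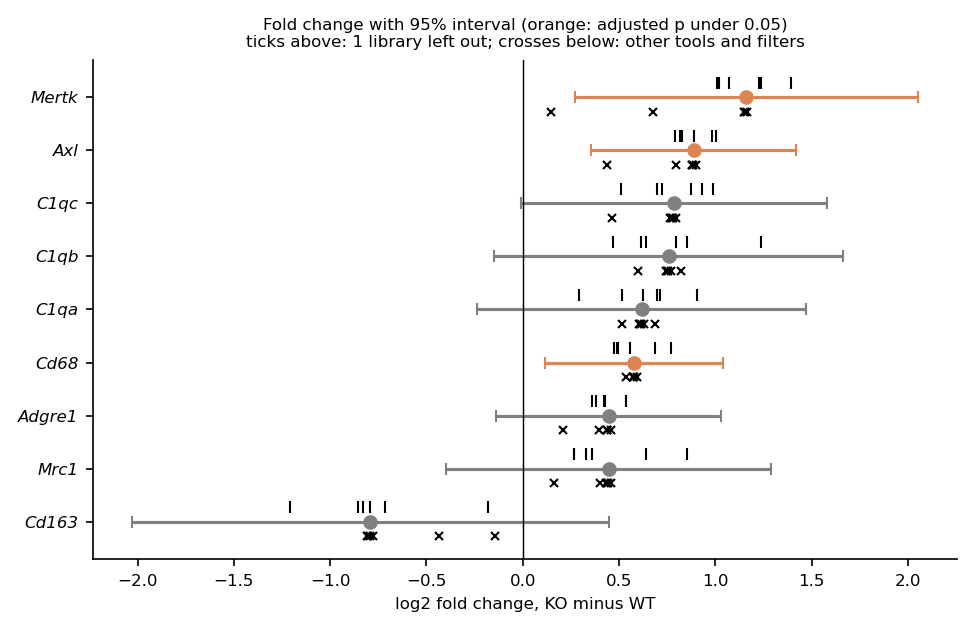
Log2 fold change of each tested gene (KO minus WT) with its 95% interval, in orange at an adjusted p under 0.05. Ticks above each point give the 6 fits with 1 library left out and crosses below it the other tools, filters and scalings, all on the same side of 0 as the point itself.

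Summed over the 3 chains, C1q had 120, 148 and 68 counts in WT and 222, 173 and 214 in KO. The sums were 7.79 CPM (95% Poisson interval 6.46 to 9.32), 10 CPM (8.49 to 11.8) and 4.12 CPM (3.20 to 5.22) in WT replicates 1, 2 and 3. They were 13.1 CPM (11.4 to 14.9), 10.1 CPM (8.63 to 11.7) and 12.7 CPM (11.1 to 14.5) in KO replicates 11, 12 and 13. WT replicate 2 and KO replicate 12 were thus alike within counting error, whereas the WT libraries differed among themselves by up to 2.44 times, and the KO libraries by 1.30 times. WT replicate 3 was the lowest of its group for all 3 chains and for *Cd163*, and the highest for *Cd68* and *Adgre1*. Without it the log2 fold changes of the chains dropped to 0.29, 0.47 and 0.51 (adjusted p = 0.425, 0.334 and 0.212).

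**Figure D4:**
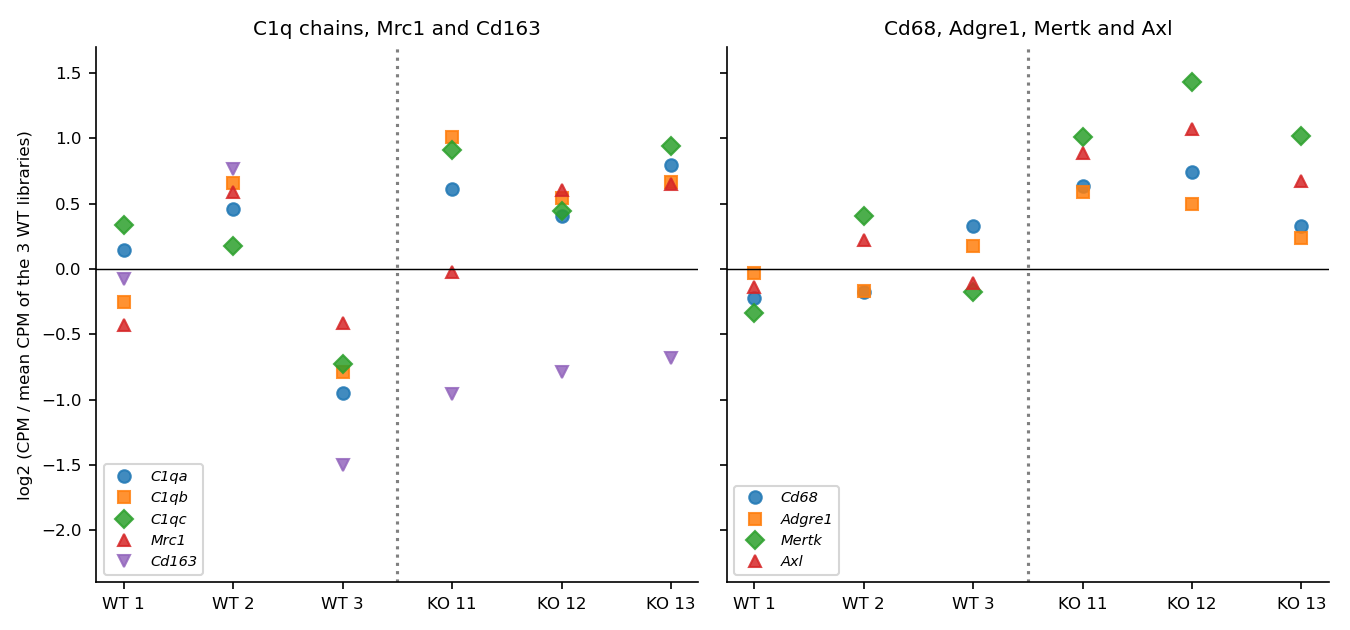
Log2 of each library's CPM over the mean CPM of the 3 WT libraries, 1 symbol per gene, with the KO libraries right of the dotted line. The C1q chains, *Mrc1* and *Cd163* are below 0 in WT replicate 3, where *Cd68* and *Adgre1* are above 0, and *Cd163* is the only gene below 0 in all 3 KO libraries.

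The proportions of the chains did not differ detectably. Per length, the log2 ratio of *C1qa* to the mean of the other chains was 0.657 ± 0.185 in WT and 0.553 ± 0.195 in KO (SD, n = 3), that of *C1qb* 0.180 ± 0.368 and 0.295 ± 0.235, and that of *C1qc* -1.06 ± 0.372 and -1.04 ± 0.107. The ratio of *C1qc* was below 0 in all 6 libraries, which depends on its longer annotated length (1931 bases, against 1040 for *C1qa* and 1088 for *C1qb*). Summed C1q over *Adgre1* was 2.76 ± 0.798 and 3.11 ± 0.268 on the log2 scale. For these 4 ratios exact 2-sided permutation p-values ran from 0.5 to 1 and, adjusted over all 5 ratios computed, from 0.875 to 1, in a design that cannot go below 0.1.

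The pattern of summed C1q over the 6 libraries was most like those of *Cbfa2t2* (Pearson's r = 0.990), *Eipr1* (0.989) and *C87436* (0.989) among 13030 genes with at least 1 CPM, and 39 genes had an r over 0.95. That of *Adgre1* was most like *Padi4* (0.999), *Prom1* (0.998) and *Zfp608* (0.998), and 263 genes had an r over 0.95. These 6 libraries share the genotype difference, which enters every such r. With 6 libraries, an r over 0.95 can also arise among so many genes without any relation. The genes most like summed C1q had WT and KO means of 45.5 and 49.5 CPM (*Cbfa2t2*), 35 and 37.8 CPM (*Eipr1*) and 16.4 and 20.6 CPM (*C87436*).

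Other genes of the pathways were taken from lists. In the complement list, 17 of 27 genes were tested, of which 5 were higher and 3 lower in KO (median log2 fold change 0.0807). The 8 called genes are 47.1% of those tested, near the 44.2% over all genes. Of the 5 that were higher, *C5ar1* and *Itgax* passed the count filter only through the KO libraries, and *C2* passed only through the WT libraries, where it was high. The C1 proteases were nearly absent, with at most 7 counts of *C1ra* and 1 of *C1s1* or *C1s2* in any library and 0 of *C1rb*. *C2* fell from 12.5 ± 7.84 to 0.313 ± 0.234 CPM (SD, n = 3, log2 fold change -5.28, SE 0.68, adjusted p = 0.000735 from edgeR). *C4a* fell from 17.4 ± 6.30 to 1.43 ± 0.988 CPM (log2 fold change -3.59, SE 0.49, adjusted p = 0.000976). Without KO replicate 12 the log2 fold changes were -6.08 and -4.32. *C4a* is a close copy of *C4b*, which did not pass the threshold (adjusted p = 0.807), and the counting could have split reads between them. *C5ar2*, a receptor for C5a, rose from 27.8 ± 5.69 to 54.6 ± 6.22 CPM (log2 fold change 0.97, SE 0.16, adjusted p = 0.00233).
*C3*, *C5ar1* and *Cd93* were chosen after their values were seen. *C3*, the central complement protein, had a mean of 17.0 ± 6.60 CPM in WT and 60.3 ± 30.1 CPM in KO (adjusted p = 0.0103 from edgeR), and *C5ar1*, another C5a receptor, of 1.33 ± 0.674 and 9.47 ± 7.30 CPM (adjusted p = 0.0143). Without KO replicate 11 the log2 fold change of *C5ar1* went from 2.81 to 2.08 (adjusted p = 0.0461). *Cd93*, once proposed as a C1q receptor, fell from 135 ± 121 to 13.2 ± 5.46 CPM (adjusted p = 0.00478). Its WT mean rests on replicate 2, with 275 CPM against 61.8 and 68.5 CPM, and without it the log2 fold change went from -3.35 to -2.31. The abundant surface regulators *Cd55* (384 and 274 CPM, adjusted p = 0.135) and *Cd59a* (219 and 244 CPM, adjusted p = 0.416), which shield cells from complement, did not pass the threshold, but each did with a library omitted (*Cd55* lower without WT replicate 1, adjusted p = 0.0335, and *Cd59a* higher without WT replicate 2, 0.0376).

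In the efferocytosis list, 19 of 25 genes were tested, of which 5 were higher and 9 lower (median log2 fold change -0.159). Over all genes 21.5% were higher and 22.7% lower. Of the 5 that were higher, *Stab2*, *Cd300lb* and *Dock1* passed the count filter only through the KO libraries, and *Stab1* passed only through the WT libraries, where it was high. *Mfge8*, which bridges phosphatidylserine to integrins, fell from 135 ± 16.7 to 31.4 ± 4.02 CPM (log2 fold change -2.10, SE 0.13, adjusted p = 4.58e-05 from edgeR). *Abca1*, a lipid exporter, fell from 47.3 ± 23.1 to 3.08 ± 0.308 CPM (log2 fold change -3.93, SE 0.37, adjusted p = 0.000196), and *Stab1*, a scavenger receptor of macrophages and endothelium, from 20.7 ± 18.4 to 0.782 ± 0.491 CPM (log2 fold change -4.71, SE 0.75, adjusted p = 0.00202). *Stab1* was highest in WT replicate 2, without which its log2 fold change was -3.69, and it was -5.34 without KO replicate 12. *Calr* (823 and 737 CPM, adjusted p = 0.425), whose product on dying cells prompts their uptake, and *Cd47* (393 and 444 CPM, adjusted p = 0.142), which inhibits it, were the most abundant and did not pass. The ligands of MERTK (GAS6 and protein S) and of AXL (GAS6) were looked up after values were seen. *Pros1*, which encodes protein S, fell from 53.3 ± 14.7 to 13.7 ± 9.45 CPM (log2 fold change -1.95, SE 0.44, adjusted p = 0.00930 from edgeR), and its log2 fold change was -2.67 without KO replicate 12. *Gas6* had at most 5 counts in any library, and *Tyro3*, the third receptor of the family, had 0 in all 6.

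In the scavenger receptor list, 9 of 14 genes were tested, of which 3 were higher and 1 lower (median log2 fold change 0.413). These 4 are 44.4% of those tested, beside 44.2% over all genes, and of the 3 that were higher *Scarf1* and *Olr1* passed the count filter only through the KO libraries. *Clec7a*, the receptor for fungal glucans, rose from 3.03 ± 0.869 to 9.53 ± 5.39 CPM (adjusted p = 0.0225 from edgeR) and *Scarf1* from 0.322 ± 0.112 to 1.26 ± 0.264 CPM (adjusted p = 0.00708). The call of *Clec7a* was lost without WT replicate 1 or 2 or KO replicate 11 or 12 (adjusted p from 0.0574 to 0.0792). *Lgals3*, which encodes galectin-3, fell from 133 ± 38.9 to 21.8 ± 7.14 CPM (adjusted p = 0.000417). *Scarb1*, a receptor for high-density lipoprotein, did not pass (74.5 and 65.0 CPM, adjusted p = 0.365). Of the regulators of macrophage identity, 15 of 19 were tested, of which 2 were higher and 5 lower (median log2 fold change 0.204), or 46.7% called beside 44.2% over all genes. The growth factor gene *Csf1* fell from 65.3 ± 49.9 to 1.76 ± 1.07 CPM (log2 fold change -5.20, SE 0.66, adjusted p = 0.000695 from edgeR). Its WT libraries held 123, 34.0 and 39.0 CPM, and the log2 fold change was -4.37 without WT replicate 1 and -5.81 without KO replicate 12. The transcription factor genes *Bhlhe40* and *Zeb2* fell with log2 fold changes of -2.0 (adjusted p = 0.000532) and -1.45 (0.000254). *Spi1*, *Csf1r*, *Maf* and *Irf8* were looked up after their values were seen. *Spi1*, which encodes PU.1, did not pass (82.4 and 94.9 CPM, adjusted p = 0.207), nor did the CSF1 receptor gene *Csf1r* (8.19 and 12.2 CPM, adjusted p = 0.200). *Irf8* rose from 4.69 ± 1.94 to 16 ± 4.82 CPM (adjusted p = 0.00467), and *Maf*, which passed the count filter only through the KO libraries, from 0.472 ± 0.0979 to 1.90 ± 0.582 CPM (adjusted p = 0.00493).

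**Figure D5:**
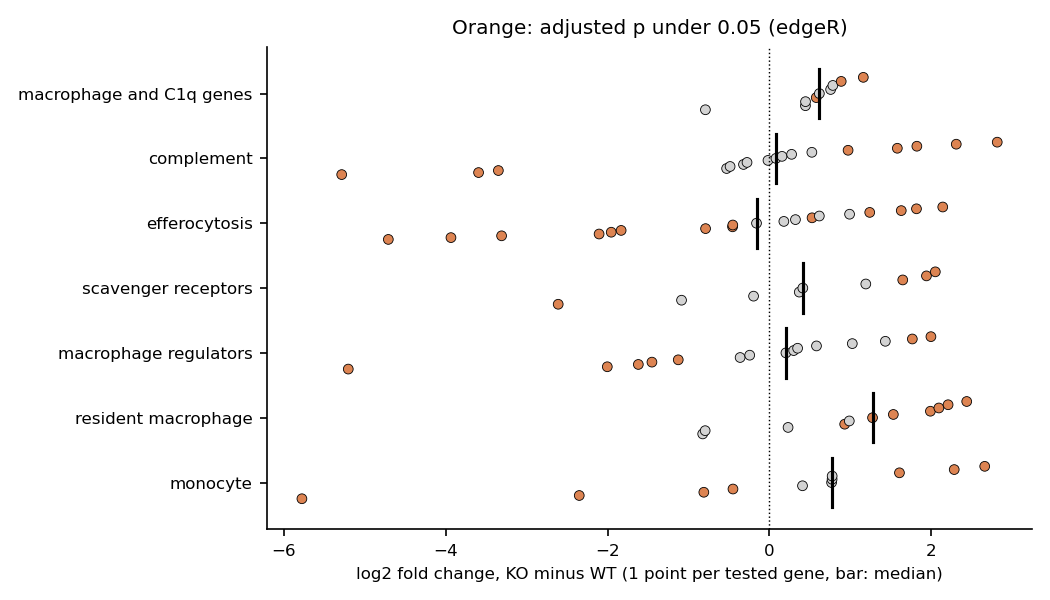
Log2 fold change (KO minus WT) of every tested gene of the macrophage, complement, uptake, regulator and monocyte lists, 1 point per gene, in orange at an adjusted p under 0.05, with the median of each list as a bar. The median is 0.617 for the 9 tested members and 1.27 for the tissue-resident macrophage list, and the efferocytosis and regulator lists hold called genes on both sides of 0.

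Of 19 other genes listed for tissue-resident macrophages, 11 were tested, of which 7 were higher (63.6%) and 0 lower, beside 21.5% higher and 22.7% lower over all genes, and the median log2 fold change was 1.27. Of the 7, *Fcgr1* and *Cd9* passed the count filter only through the KO libraries. With 1 library left out, the call of *Siglec1* was kept in 1 of 6 fits (adjusted p up to 0.128) and that of *Cd9* in 2 (up to 0.117). *Slc40a1*, the iron exporter ferroportin, rose from 3.04 ± 0.429 to 13 ± 4.0 CPM (log2 fold change 2.09, SE 0.29, adjusted p = 0.00100 from edgeR). *Lgmn*, a lysosomal protease, rose from 2.40 ± 1.06 to 13 ± 5.89 CPM (log2 fold change 2.44, SE 0.42, adjusted p = 0.00283), and *Vcam1*, an adhesion molecule of central macrophages and of stroma, from 4.38 ± 1.85 to 12.6 ± 1.51 CPM (log2 fold change 1.53, SE 0.30, adjusted p = 0.00503). *Apoe*, which carries lipids, rose from 18.0 ± 3.63 to 34.3 ± 8.41 CPM (adjusted p = 0.0100), whereas *Hmox1*, which degrades heme, had 10.9 and 6.16 CPM (adjusted p = 0.0997, or 0.0160 without WT replicate 3). Several of these genes are not particular to macrophages. The macrophage genes named next were picked outside the rule based on p and level. *Clec4f*, *Vsig4* and *Timd4* had at most 2 counts in any library. *Siglec1*, in contrast, rose from 1.18 to 2.85 CPM (adjusted p = 0.0447 from edgeR) and *Fcgr1* from 0.560 to 2.24 CPM (adjusted p = 0.0111). Below the count filter, *Lyve1* had 0, 2 and 0 counts in WT and 13, 6 and 13 in KO, and *Gpnmb* had 8, 13 and 2 against 0, 4 and 2. The summed level of the list ran from 36.0 to 55.6 CPM in WT and from 79.1 to 113 CPM in KO, and that of the 10 genes described here from 28.9 to 36.0 and from 44.0 to 49.1 CPM.

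Markers of several other cell types differed between the groups as well. The counts of called genes below stand beside 21.5% higher and 22.7% lower over all genes. The summed erythroid markers ran from 1740 to 2510 CPM in WT and from 6210 to 7190 CPM in KO, with 10 of 10 genes higher. The summed neutrophil markers ran from 169 to 540 and from 1050 to 3760 CPM (11 of 11 higher), eosinophil markers from 55.4 to 76.9 and from 133 to 185 CPM (6 of 9), and B and plasma cell markers from 3.57 to 10 and from 28.1 to 76.9 CPM (6 of 6 tested). Mast cell and basophil markers summed to between 19500 and 30800 CPM in WT and between 4970 and 5430 CPM in KO, with 10 of 11 genes lower. Dendritic cell markers summed to 22.2 to 43.3 and 67.1 to 98.9 CPM, with 1 of 6 tested genes higher (*Zbtb46*). That gene held 0.325 to 1.39 CPM in WT and 36.8 to 51.8 CPM in KO, so the dendritic sums differed largely through it. *Xcr1*, *Clec9a* and *Batf3* had at most 8 counts in any library. T and NK cell markers summed to 1.97 to 3.64 and 4.52 to 9.62 CPM (1 of 1 tested higher). Stromal and endothelial markers summed to 3.26 to 8.18 and 8.32 to 10.7 CPM (1 of 4 higher, *Cxcl12*, 1 lower, *Pdgfrb*, and *Emcn* at 0 in all libraries). *Zbtb46* and *Cxcl12* passed the count filter only through the KO libraries and *Pdgfrb* only through the WT libraries. The counts of calls in the dendritic list and in the stromal and endothelial list are thus no evidence of direction. Of the genes called higher, 10 neutrophil, 2 eosinophil and 2 B and plasma cell genes did not depend on the KO libraries to pass that filter. The neutrophil gene *Ly6g* passed it only through the KO libraries, and the mast cell gene *Tpsb2* only through the WT libraries, where it was high.
The 11 tested monocyte genes were split, with 3 higher and 4 lower: *Ly6c2* (10.9 and 53.3 CPM, adjusted p = 0.00338 from edgeR) and *Lyz2* (44.9 and 285 CPM, 0.00584) rose, whereas *Cx3cr1* (81.1 and 1.47 CPM, 5.87e-05) and *Nr4a1* (214 and 42.0 CPM, 0.00445) fell, and the monocyte sum of 524 to 651 CPM and 314 to 849 CPM overlapped. *Cx3cr1* passed the count filter only through the WT libraries, where it was high. The called genes are 63.6% of those tested, beside 44.2% over all genes. The part of these cells in the values of *Axl*, *Cd68*, *Mertk*, the C1q chains and the resident macrophage list was not tested.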

How the data were processed

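The authors deposited 1 table with raw counts and FPKM for each gene and library, gene coordinates and lengths, and their own comparison (means, fold changes and p-values), which was not used. Bowtie 0.12.0 and mm8 are named in the submitters' processing notes, but 98.33% of the 54495 gene IDs found in a GRCm38 annotation, all 10 members included, have its start and end. Counting tool and strand setting are not given in the sources used here. Of 54532 genes, 14169 passed edgeR's filterByExpr and entered its quasi-likelihood test (edgeR 4.0.16, R 4.3.3; TMM scaling, Benjamini-Hochberg over all genes tested, threshold 0.05), with the 3 libraries of each genotype as groups and no covariate. The script was tested on simulated data. CPM is TMM-scaled. Alternatives were DESeq2 1.42.0, its size factors, no filter on counts, a minimum of 10 reads per library, limma 3.58.1 on log2(FPKM + 1) or + 0.1, and each library left out. A read is worth 0.0583 to 0.0678 CPM. Ratios were tested by exact permutation.

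The members and lists were chosen with earlier results of these data known. Besides the members, named were, in each pathway list, the 3 genes with the smallest p and the 2 with the highest CPM, and the 3 genes most like summed C1q and *Adgre1*. Further genes, among them *Siglec1*, *Fcgr1*, *Lyve1* and *Gpnmb*, were named outside this rule. Correlations between libraries were 0.975 to 0.988 within and 0.872 to 0.909 across groups. Promoters come from RefSeq. Of the listed regulators, 1 gene is counted but its own result is not reported here.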

Additional observations from a re-analysis of the deposited data

How the results depend on the processing

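No paired analysis was possible because the replicate numbers of the *WT Phf6,RE9a* (1 to 3) and *VC Phf6,RE9a* (11 to 13) libraries are not shared. Among the members, 3 were higher with the filter and 1 (*Axl*) without it. With at least 10 counts in every library, 2 efferocytosis genes and 1 scavenger receptor gene were higher and 2 monocyte genes lower. Without a pseudocount the difference in the log2 ratio of *Mertk* to *Axl* was 0.303. With 1 library left out, 0 to 3 members were higher (0 without *VC Phf6,RE9a* replicate 11 or 12) and 0 to 1 lower. In the same fits 3 to 7 complement, 2 to 4 efferocytosis, 1 to 3 scavenger receptor and 5 to 7 resident macrophage genes were higher. There 0 to 1 resident macrophage and 2 to 4 monocyte genes were lower. The cause of these shifts was not tested. Member counts of under 100 in most libraries limit the precision, and *Mertk* and *Marco* rest on fewer than 20 counts in each library.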
